A study of Mus musculus with 2 samples.

Results

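The genes described here make acetyl-CoA or spend it. There were 10 of them, of 22886 genes in the deposited tables, and they were chosen by name for their roles: Acly, Acss1, Acss2, Pdha1, Pdhb, Dlat, Crat, Acaca, Fasn and Acat2. The study sequenced polyA RNA of cells that its labels call FACS-sorted aerobic tumor cells, from subcutaneous Lewis lung carcinoma (LLC) tumors of wild type C57BL/6 mice. LLC is a mouse lung tumor line that grows when placed under the skin. Vehicle was injected into some mice and clodronate, used to deplete macrophages, into others, and there was 1 library per condition. The age of the mice, the number pooled and the dose are not given in the sources used here, and a growth protocol in the labels names EML cells, a blood progenitor line, which conflicts with the other labels. With 1 library per condition no difference has a replicate check, no p-value is given, and treatment and library cannot be told apart.

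Acetyl-CoA carries the carbon that joins glycolysis, the citric acid cycle and the synthesis of fatty acids and sterols, and it is the donor for the acetylation of proteins. It does not cross the inner mitochondrial membrane. In mitochondria the pyruvate dehydrogenase complex makes it from pyruvate, and citrate synthase joins it to oxaloacetate. Citrate that leaves the mitochondrion is cleaved in the cytosol by ATP citrate lyase, while acetyl-CoA synthetases charge free acetate. In macrophages this supply is known to change with activation.

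The labelled cell type was checked against marker genes first. Values are RPKM, reads scaled to transcript length and library size, as the authors deposited them. The 12 macrophage markers summed to 23865 RPKM in the vehicle library and 22970 RPKM in the clodronate library, with 8 of them higher and 4 lower after clodronate, and Lyz2 alone stood at 10534 and 11189 RPKM. The 6 epithelial markers summed to 12.8 RPKM in the vehicle library and 11.0 RPKM in the clodronate library. Epcam, Krt19 and Cldn4 had a value of 0 in both. Cdh1 stood at 6.14 and 6.44 RPKM, Krt8 at 3.67 and 1.33 RPKM, and Krt18 at 2.97 and 3.19 RPKM. The high macrophage markers therefore went against the label of tumor cells in both libraries. How far LLC cells express the epithelial markers was not tested. Fibroblast markers summed to 154 and 75.4 RPKM, with 5 of 7 lower after clodronate, endothelial markers to 3.34 and 7.84 RPKM with 2 of 6 at 0, neutrophil markers to 12.7 and 23.1 RPKM with 4 of the 5 found at 0, and T and NK cell markers to 10.3 and 7.75 RPKM with 3 of the 5 found at 0. Adipocyte markers, of a cell type known for high Acly and Fasn, summed to 1.90 and 3.25 RPKM, and Adipoq, Plin1, Lep and Cidec were at 0 in both libraries. Of 10 proliferation genes 9 were higher after clodronate, with sums of 67.2 and 174 RPKM. These counts of direction stand beside 51.6% higher after clodronate among all genes that passed the filter set out below. Some of the macrophage, fibroblast and proliferation differences counted were within the counting error that is also set out below. The part of cell makeup and of proliferation in the values below was not tested, and in bulk RNA fewer cells of a type and less RNA per cell cannot be told apart.

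The promoters of the 4 genes on which the results turn are shown, Acly and Fasn of the cytosolic route to fatty acids, and Dlat and Acss2, which had the highest and the lowest ratio of the 10. Each is the 250 bases before the start of the gene in RefSeq annotation of GRCm38.p6, printed 5′ to 3′ on the strand of the gene. Acly lies at chr11:100528001-100528250 on the minus strand, Fasn at chr11:120824548-120824797 on the minus strand, Dlat at chr9:50659781-50660030 on the minus strand and Acss2 at chr2:155517793-155518042 on the plus strand. Capitals mark a CCAAT box, CCAAT, or a GC box, GGGCGG, on either strand.
Acly: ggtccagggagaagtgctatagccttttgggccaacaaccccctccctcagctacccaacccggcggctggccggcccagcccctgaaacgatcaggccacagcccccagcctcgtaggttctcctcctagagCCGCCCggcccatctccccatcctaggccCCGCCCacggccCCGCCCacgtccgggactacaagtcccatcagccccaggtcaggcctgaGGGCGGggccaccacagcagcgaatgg
Fasn: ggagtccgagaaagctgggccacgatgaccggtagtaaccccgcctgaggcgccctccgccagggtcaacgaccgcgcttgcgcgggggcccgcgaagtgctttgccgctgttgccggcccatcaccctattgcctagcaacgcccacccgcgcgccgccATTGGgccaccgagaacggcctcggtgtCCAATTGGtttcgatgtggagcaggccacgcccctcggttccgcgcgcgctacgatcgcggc
Dlat: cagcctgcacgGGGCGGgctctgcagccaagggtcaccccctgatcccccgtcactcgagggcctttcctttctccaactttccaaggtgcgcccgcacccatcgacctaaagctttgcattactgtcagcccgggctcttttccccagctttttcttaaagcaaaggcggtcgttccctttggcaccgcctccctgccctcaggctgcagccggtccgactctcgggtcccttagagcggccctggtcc
Acss2: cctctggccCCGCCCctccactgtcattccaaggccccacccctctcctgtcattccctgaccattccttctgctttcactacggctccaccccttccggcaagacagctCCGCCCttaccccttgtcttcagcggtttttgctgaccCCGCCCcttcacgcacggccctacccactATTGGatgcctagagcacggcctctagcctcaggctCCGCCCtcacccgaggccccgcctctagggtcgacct
The Acly window held 4 GC boxes, at 117, 88, 76 and 27 bases before the start, and no CCAAT box. The Fasn window held CCAAT boxes at 90, 62 and 59 bases before the start, the last pair on opposite strands and sharing letters, and no GC box. The Acss2 window held 4 GC boxes and 1 CCAAT box, and the Dlat window held 1 GC box.

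Windows of 9 of the 10 genes were found, and Crat had no entry. A CCAAT box stood in 3 of the 9 (Acss2, Fasn and Pdhb) and in 33.8% of 32851 mouse windows of the same length. A GC box stood in 6 of the 9 (Acat2, Acly, Acss1, Acss2, Dlat and Pdhb) and in 32.7% of all windows. The E-box CACGTG was in 0 of the 9 and in 6.02% of all windows, and TCACNCCAC, the core of a sterol regulatory element, was in 0 of the 9 and in 1.05% of all windows. These matches describe the letters of these windows only. The bases at the annotated start of Pdha1 were not found in the transcript used for it, unlike those of the other genes with a window. The Acaca window had 39.2% GC, and every other window at least 60%. Whether these 2 windows are promoters in use was not tested, so their lack of matches may not hold for the promoters of Pdha1 and Acaca.

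All 10 genes were measured in both libraries and all 10 passed the filter, a mean of at least 1 RPKM, as did 10982 genes in all. Log2 ratios below are taken after adding 1 RPKM to both values, with vehicle as the denominator, and this makes differences at low levels look smaller. No member was at least 2-fold higher or lower on this scale, where 6.95% of the genes kept were higher and 6.77% lower. At 1.5-fold, Dlat was higher and Acss2 lower, 1 of 10 each way, beside 16.6% and 16.3% of the genes kept. The log2 ratio was above 0 for 7 of the 10 and below 0 for Acss2, Acat2 and Pdha1, and 51.6% of the genes kept were above 0. The median of the 10 was 0.16 and that of the genes kept 0.02.

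**Figure D1:**
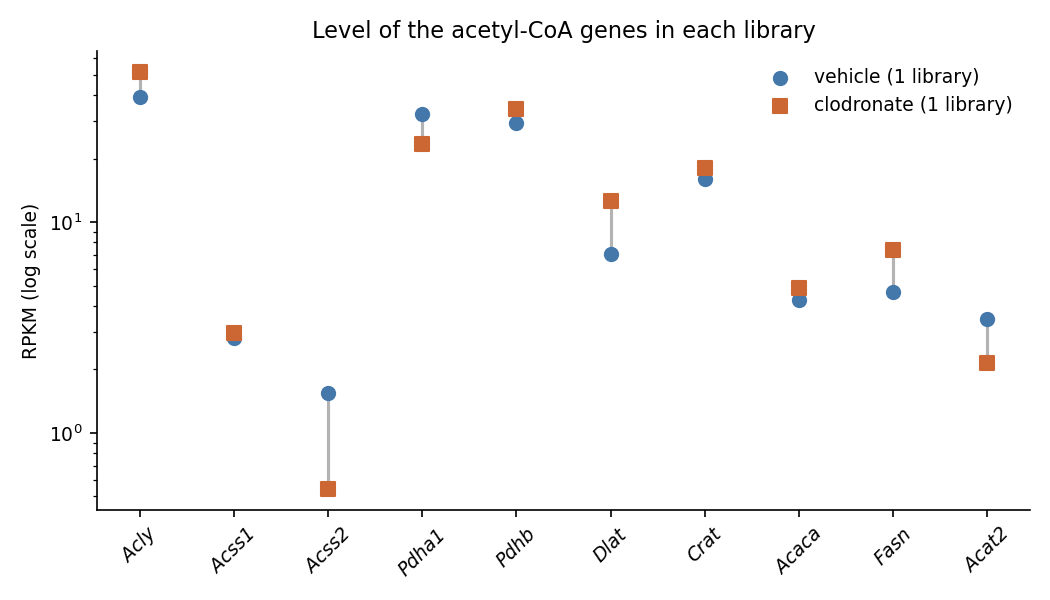
RPKM (log scale) of each acetyl-CoA gene in the vehicle library (circles) and the clodronate library (squares), 1 library each, so no error bars are drawn. Acly was highest in both libraries, at 39.1 and 51.7 RPKM, and Acss2 lowest, at 1.55 and 0.541 RPKM.

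The low values of the files fall on steps, which gave an estimate of what 1 read is worth, and a depth of about 13.8 M reads for the vehicle library and 11.2 M reads for the clodronate library, with 70.9% and 73.2% of the low loci used lying within 3% of a whole number of reads. From the reads that each level then implies, a 95% interval (Clopper-Pearson) was set on each ratio of clodronate to vehicle RPKM. These intervals rest on that estimated depth, were added after the data were seen, and cover counting error only, not the spread between animals. They left out a ratio of 1 for 8 members, 5 of them higher and 3 lower after clodronate. They did so for 39.3% of 10787 genes in the higher direction and 36.4% in the lower. Those 10787 genes were kept, had a known transcript length and did not include the shortest transcripts.

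**Figure D2:**
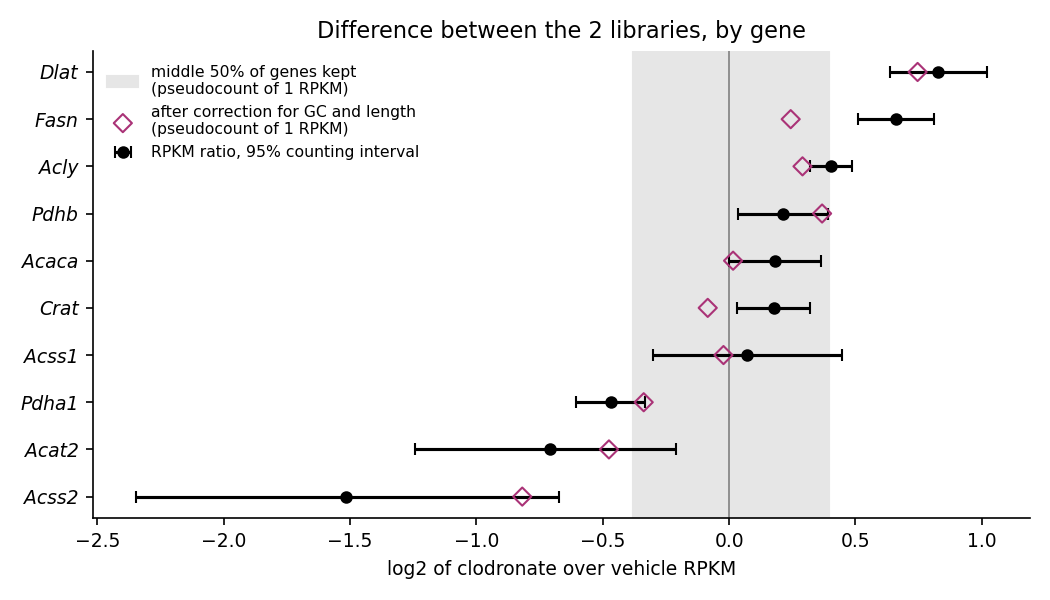
Log2 of clodronate over vehicle RPKM for each acetyl-CoA gene (black circles, no pseudocount) with its 95% counting interval (bars), the log2 ratio corrected for GC content and transcript length (diamonds, pseudocount of 1 RPKM), and the middle 50% of the genes kept (grey, -0.38 to 0.40, pseudocount of 1 RPKM). The circles and the grey band are thus on unlike scales, which matters most at low levels, as for Acss2. Dlat and Fasn lie highest and Acss2 lowest, and the diamonds of Crat and Acss1 lie below 0 while their circles lie above it.

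The ratios also moved with the GC content of the transcripts. The median log2 ratio of the genes kept went from -0.24 in the lowest of 10 bins of GC content to 0.30 in the highest. Fasn, at 57.9% GC, and Crat, at 56.1%, lay toward the high end and Pdha1, at 45.5%, toward the low end. With the bin medians of GC content and then of transcript length taken off, an alternative added after the data were seen, the median of the 10 genes was -0.0034 in place of 0.16. The cause of the trend was not tested.

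**Figure D3:**
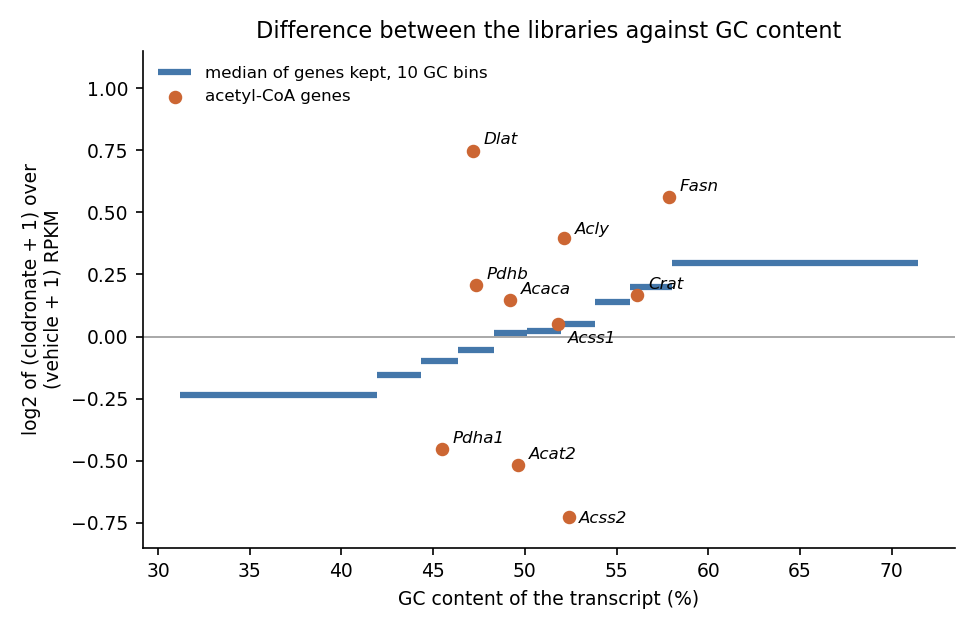
Log2 ratio of clodronate + 1 over vehicle + 1 RPKM against the GC content of the transcript (%), for the acetyl-CoA genes (points) and as the median of the genes kept in 10 bins of GC content (bars, each as wide as its bin). The bar medians climb from -0.24 to 0.30, and Crat and Acss1 lie close to them while Dlat, Acss2 and Acat2 lie farthest away.

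Acly, ATP citrate lyase, splits cytosolic citrate into acetyl-CoA and oxaloacetate (mm9 chr11:100337665-100389314). It stood at 39.1 RPKM in the vehicle library and 51.7 RPKM in the clodronate library, higher than 81.6% and 85.8% of the genes kept. The ratio was 1.32, with a counting interval of 1.25 to 1.40, and the log2 ratio of 0.39 became 0.29 once GC content and length were corrected for. Slc25a1, the citrate carrier of the inner mitochondrial membrane, which was picked after its values were seen, stood at 18.3 and 26.5 RPKM. The level of Acly was thus 2.13 times that of Slc25a1 in the vehicle library and 1.95 times in the clodronate library. Cs, citrate synthase, went the other way, from 116 to 53.9 RPKM, a log2 ratio of -1.10, so that its level was 2.98 times that of Acly in the vehicle library and 1.04 times in the clodronate library.

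Both acetyl-CoA synthetases were under 3 RPKM in each library. Acss2, the enzyme of cytosol and nucleus (mm9 chr2:155343778-155388479), was at 1.55 RPKM in the vehicle library and 0.541 RPKM in the clodronate library, about 58 and 17 implied reads. The vehicle level was 2.86 times the clodronate level, with a counting interval of 1.60 to 5.09, and the log2 ratio was -0.72, or -0.82 after the correction. With a mean of 1.04 RPKM, Acss2 passed the filter only through its vehicle value. Acss1, the mitochondrial enzyme (mm9 chr2:150443846-150494668), was at 2.82 and 2.96 RPKM, a ratio of 1.05 with a counting interval of 0.812 to 1.36. Acss1 was 1.83 times the level of Acss2 in the vehicle library and 5.48 times in the clodronate library, and Acly 25.3 and 95.5 times. Acss3, the third gene of the family, was listed at 0 in both libraries.

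The members of the pyruvate dehydrogenase complex, which turns pyruvate into acetyl-CoA in the mitochondrion, went in different directions. Pdha1 (deposited locus mm9 chrX:156426364-156576268) is the alpha subunit of the E1 enzyme and the one that is switched off by phosphorylation. It was at 32.6 RPKM in the vehicle library and 23.5 RPKM in the clodronate library. Its ratio was 0.722, with a counting interval of 0.657 to 0.794. Pdhb (mm9 chr14:8998504-9005506), the beta subunit with which it forms the E1 tetramer, was at 29.5 and 34.2 RPKM, a ratio of 1.16 with an interval of 1.02 to 1.31. Pdha1 was accordingly above Pdhb in the vehicle library, at 1.10 times its level, and below it in the clodronate library, at 0.688 times. Dlat (mm9 chr9:50442737-50467885), the E2 core that carries the lipoyl groups and hands the acetyl unit to CoA, was at 7.08 and 12.6 RPKM, 1.78 times as high after clodronate with an interval of 1.55 to 2.03. After the correction the log2 ratios were -0.34 for Pdha1, 0.37 for Pdhb and 0.75 for Dlat, so the opposite directions of Pdha1 and Pdhb were kept.

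Of 14 further genes of pyruvate entry and oxidation 11 passed the filter, and 8 of the 11 had a log2 ratio below 0, where 51.6% of all genes kept were above it. Of the 11, 3 were at least 2-fold lower after clodronate and 0 higher, beside 6.77% and 6.95% of the genes kept. Their median log2 ratio was -0.37, and -0.12 with 7 below 0 once GC content and length were corrected for, with the same count of 3 past 2-fold. Pdhx, the protein that binds the E3 enzyme to the core, went from 13.0 to 4.56 RPKM, and Dlat was 0.546 times its level in the vehicle library and 2.76 times in the clodronate library. Lias, the lipoic acid synthase that makes the cofactor of Dlat, went from 27.7 to 9.53 RPKM. Pdp2, a phosphatase that switches Pdha1 on, went from 7.80 to 2.46 RPKM. Mpc1, a subunit of the mitochondrial pyruvate carrier and the highest gene of the group, was at 62.5 and 43.8 RPKM. Dld, the E3 enzyme, was at 20.0 and 20.5 RPKM and was picked after its values were seen. Lipt1, a lipoyl transferase, was listed at 0 in both libraries.

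Crat, carnitine acetyltransferase (mm9 chr2:30247935-30271268), moves acetyl units between CoA and carnitine and so buffers acetyl-CoA. It was at 16.0 RPKM in the vehicle library and 18.1 RPKM in the clodronate library, a ratio of 1.13 with a counting interval of 1.02 to 1.25. Its log2 ratio of 0.17 became -0.08 with that correction of GC content and length, so its direction depended on that step. Of 6 genes of the carnitine shuttle 5 were found and kept, and 0 were past 2-fold either way. With a pseudocount of 0.1 RPKM 1 was lower, beside 1036 of the 10982 genes kept. This was Slc22a5, a carnitine carrier, at 3.55 and 1.44 RPKM, picked after its values were seen. Cpt1a, which loads long chain fatty acids onto carnitine, was the highest at 33.0 and 35.7 RPKM.

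Acaca and Fasn spend acetyl-CoA on fatty acids. Acaca, acetyl-CoA carboxylase (mm9 chr11:84008939-84215153), makes malonyl-CoA and was at 4.27 RPKM in the vehicle library and 4.84 RPKM in the clodronate library, a ratio of 1.13 whose counting interval of 0.999 to 1.29 took in 1. Fasn, fatty acid synthase (mm9 chr11:120667271-120685861), builds palmitate from malonyl-CoA and was at 4.67 and 7.38 RPKM, 1.58 times as high after clodronate with an interval of 1.42 to 1.75. The level of Fasn was 1.09 times that of Acaca in the vehicle library and 1.52 times in the clodronate library. The log2 ratio of Fasn fell from 0.56 to 0.24 with the correction, and that of Acaca from 0.15 to 0.02.

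Around them, 13 of 16 genes of fatty acid synthesis and its NADPH passed the filter, with a median log2 ratio of 0.02, or -0.10 after the correction, and 0 past 2-fold. The log2 ratio was above 0 for 7 of the 13 and below 0 for 6, where 51.6% of the genes kept were above 0. Elovl1, an elongase of very long chains, was the highest of these at 103 and 114 RPKM. Mid1ip1, which promotes the assembly of acetyl-CoA carboxylase into filaments, was at 14.0 and 27.2 RPKM. Srebf1, the gene of the regulator SREBP-1 that drives lipogenic genes, was at 11.9 and 22.2 RPKM, a log2 ratio of 0.84 that became 0.49 after the correction. Insig1, which holds SREBP proteins in the endoplasmic reticulum, was at 56.5 and 34.5 RPKM. Mid1ip1, Srebf1 and Insig1 were picked after their values were seen. Of 13 regulators 11 were kept and 0 were past 2-fold, with a median log2 ratio of 0.12, or -0.04 after the correction. Sirt2, a cytosolic deacetylase, was the highest at 67.8 and 82.1 RPKM.

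Acat2, the cytosolic thiolase that joins acetyl-CoA units into acetoacetyl-CoA for the sterol route (mm9 chr17:13135907-13153591), was at 3.49 RPKM in the vehicle library and 2.14 RPKM in the clodronate library, about 99 and 49 implied reads. Its vehicle level was 1.63 times the clodronate level, the ratio of clodronate to vehicle being 0.613 with an interval of 0.422 to 0.864. Its neighbour Acat3, a near copy, stood higher, at 19.2 and 16.3 RPKM, or 5.51 and 7.61 times the level of Acat2. The pair summed to 22.7 and 18.4 RPKM, a log2 ratio of -0.29 beside -0.52 for Acat2 alone. In the sterol branch 9 of 10 genes were kept, with a median log2 ratio of 0.13, or -0.03 after the correction, and 0 past 2-fold. Hmgcs1, which takes the product of Acat2 further, was listed at 0 in both libraries on 2 loci of an unplaced part of chromosome 13.

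In the remaining groups, 1 gene was at least 2-fold higher after clodronate. This was Acot9, a mitochondrial thioesterase, which went from 4.15 to 16.9 RPKM, 4.07 times as high. Slc16a3, a lactate and monocarboxylate carrier, was the highest of the 5 genes of acetate and acetyl-CoA handling that were kept, at 49.1 and 63.7 RPKM. Of the mitochondrial thiolases and ketone body genes 7 of 9 were kept. Of these, 0 were past 2-fold, beside 6.95% higher and 6.77% lower among the genes kept. The log2 ratio was above 0 for 6 and below 0 for 1, where 51.6% of the genes kept were above 0. The median log2 ratio of the 7 was 0.30, or 0.27 after the correction. Oxct1, which charges acetoacetate with CoA, was the highest of the 7 by its mean, at 40.7 and 32.3 RPKM. Over the whole pathway list of 81 genes, 79 were found and 66 kept, with 1 higher and 4 lower past 2-fold, beside 6.95% and 6.77% of the genes kept. The median log2 ratio of the list was 0.05, or -0.04 after the correction.

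**Figure D4:**
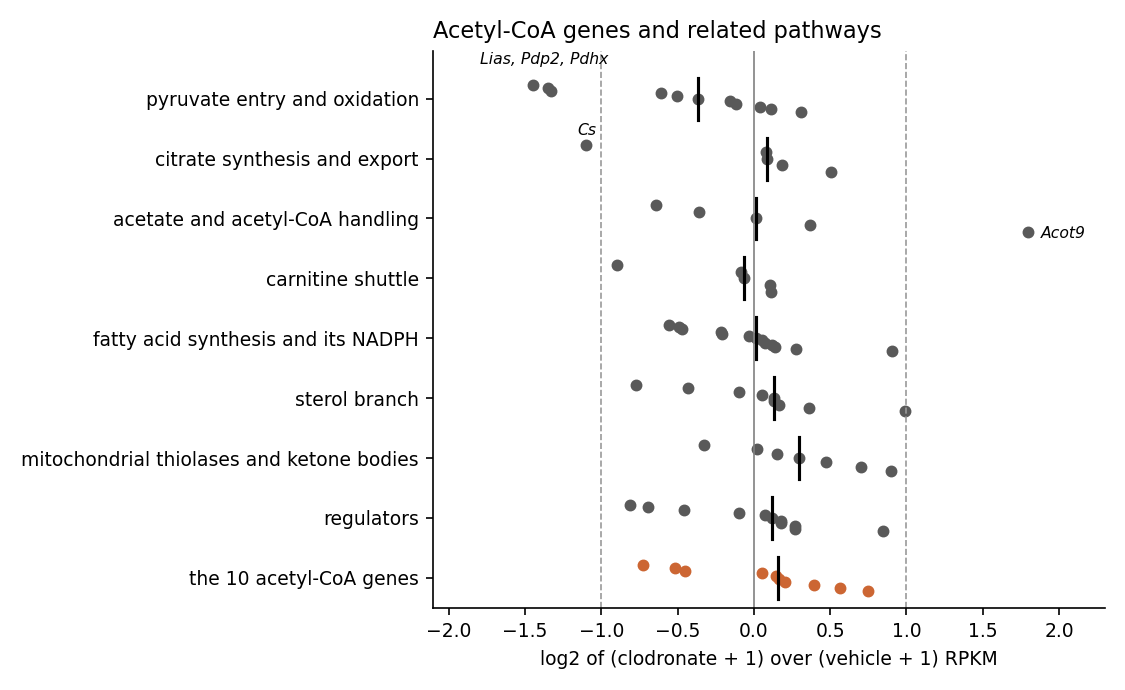
Log2 ratio of clodronate + 1 over vehicle + 1 RPKM for the pathway genes kept, by role (grey points), and for the 10 acetyl-CoA genes (orange points), with the median of each group (black bars) and lines at 2-fold (dashed). The 10 acetyl-CoA genes all lie within 2-fold, while Lias, Pdp2, Pdhx and Cs lie below it and Acot9 above it.

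Some members share sequence with other genes, which bears on how far their reads can be assigned. In the GENCODE M21 transcripts, 55.4% of the 50-base words of Acaca also occur in the pseudogene Gm5182, 45.9% of those of Acat2 in Acat3, and 30.3% of those of Pdhb in the pseudogene Gm6123. On the opposite strand, 16.5% of the words of Pdha1 occur in Map3k15, at 3.05 and 2.70 RPKM, and 13.2% of those of Acat2 in Tcp1, at 22.5 and 28.9 RPKM. For Acss2, 7.43% of the words occur in Ggt7 or Acss2os on the opposite strand. The strand setting and the treatment of reads that map to several places are not given in the sources used here, so the values of Acaca, Acat2, Pdhb, Pdha1 and Acss2 are uncertain to that extent. Pdha2, the other gene for the alpha subunit, was listed at 0 in both libraries. For Acly, Dlat, Crat and Fasn no shared word was found.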

How the data were processed

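PolyA RNA of 2 libraries was compared, vehicle and clodronate, grouped by the labels. The authors deposited RPKM values for 23170 loci per library, and RPKM are not counts. The mm9 positions given for the members are those of the deposited loci. Whether a locus, such as that of Pdha1, spans more than its gene was not tested. The submitters' processing notes name CASAVA 1.8.2, TopHat2 2.0.9, Bowtie 0.12.9, Cufflinks 2.2.1, Cuffdiff and build mm9, without roles. The annotation release and strand setting are not given in the sources used here.

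Loci were summed by symbol, and 26 symbols that had become numbers were replaced by the RefSeq identifier of the locus. A pseudocount of 1 RPKM, a filter of a mean of at least 1 RPKM and a threshold of 2-fold were used, with no test. Alternatives were a pseudocount of 0.1, no filter or a mean of at least 5, centring, equal upper quartiles, the highest locus of each symbol, and 1.5-fold and 3-fold thresholds. Added after the data were seen were the read step with its Clopper-Pearson intervals and the correction over 10 bins each of GC content and length, known for 98.7% of the genes kept from GENCODE M21. The read step was fitted to transcripts of at least 1000 bases with 200 bases taken off. The vehicle library had an estimated 1.23 times the reads of the clodronate library. Scripts ran in python 3.11.15 with numpy 2.4.6, pandas 2.3.3 and scipy 1.17.1 and were tested on simulated data.

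The members and lists were chosen with earlier results of these data known. All members were named, and of the pathway list each gene past 2-fold, the highest gene of each role and near copies of members. The highest gene of the sterol branch is not reported here. Genes named outside this rule are marked, apart from genes listed at 0 and genes that overlap a member or share its sequence, which were also added after their values were seen. Adgre1 was listed as Emr1, and the accessions of Cpt1b and Acsl3 stood on loci named Chkb and Utp14b, which were not used.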

Additional observations from a re-analysis of the deposited data

How the results depend on the processing

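No paired analysis was possible because there was 1 library of each kind, and leaving out a library leaves no comparison. With a pseudocount of 0.1 RPKM, 1032 of the 10982 genes kept were higher past 2-fold and 1036 lower. At that setting 1 of the 10 members, Acss2, was lower. Of the 66 pathway genes kept, 2, Acot9 and Lss, were higher and 5, Slc22a5 among them, lower, not 1 higher and 4 lower. Lss and Slc22a5 were picked after their values were seen. Under a filter of 5 RPKM on the mean, 346 genes were higher and 356 lower, against 763 and 744, and the median of the 6 members left was 0.30. At 1.5-fold 1828 genes were higher and 1789 lower, with 1 member and 6 pathway genes higher and 1 member and 10 pathway genes lower. At 3-fold 314 genes were higher and 255 lower, and 0 pathway genes were lower. With the correction for GC content and length, added after the data were seen, the members' median was -0.0034 against 0.16, that of the pathway list -0.04 against 0.05, and the log2 ratios of Acly, Crat and Fasn were 0.29, -0.08 and 0.24. The sign was kept under every setting that gave a value for 8 members and not for Acss1 and Crat, both of which changed it with that correction. The implied reads, from 17 for Acss2 to 2453 for Acly, limit Acss2 and Acat2 most.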

Other observations

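The acyl-CoA thioesterases, which release CoA from acyl-CoA, were chosen after their values were seen, as 1 of 8 gene families computed. Of 13 Acot genes in the files 6 were kept, and 2 of these were at least 2-fold higher after clodronate and 0 lower, beside 6.95% and 6.77% of the genes kept. Acot2, of the mitochondrial matrix, stood at 0.436 RPKM in the vehicle library and 2.90 RPKM in the clodronate library, through which alone it passed the filter, and Acot9 at 4.15 and 16.9 RPKM. Acot13 went the other way, from 85.2 to 50.3 RPKM, and Acot7, a cytosolic enzyme for long chain acyl-CoA, was at 46.9 and 66.1 RPKM. Acot1 to Acot6 are a family of close copies, and Acot3, Acot4, Acot5 and Acot6 were listed at 0 in both libraries, so the value of Acot2 is uncertain. Of 10 acyl-CoA dehydrogenases, another of the 8 families and the first enzymes of fatty acid oxidation and related routes, 8 were kept and 0 were past 2-fold. Acadl, the long chain enzyme and the highest of them, was at 21.2 and 18.0 RPKM.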
